A study of Homo sapiens with 39 samples.

Results

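The 8 genes described here encode conjugating enzymes of the liver, 4 UDP-glucuronosyltransferases of the UGT2B subfamily (UGT2B4, UGT2B7, UGT2B10 and UGT2B15) and 4 cytosolic sulfotransferases (SULT1A1, SULT2A1, SULT1E1 and SULT1B1). They were taken by name from the 20802 gene targets of the deposited tables, each is measured by 1 amplicon, and all 8 entered every test. HepaRG™ cells, an established human liver progenitor line whose differentiated cultures hold cells resembling hepatocytes and cholangiocytes, were given daily repeat exposures to 1 of 10 chemicals, and their RNA was profiled as 39 AmpliSeq libraries. The 5 DNA damage-inducing (DDI) chemicals were aflatoxin B1 (AFB1; 0.25, 1 and 2.5 µM), 2-nitrofluorene (2NF; 10, 50 and 250 µM), cisplatin (CISP; 2, 5 and 10 µM), etoposide (ETP; 0.5, 2.5 and 10 µM) and methyl methanesulfonate (MMS; 50, 100 and 200 µM). The 5 non-DDI chemicals were colchicine (COL; 0.05, 0.1 and 0.3 µM), 2-deoxy-D-glucose (2DG; 1.25, 5 and 10 mM), sodium ascorbate (ASC; 1, 2 and 10 mM), ampicillin trihydrate (AMP; 1, 3 and 10 mM) and sodium chloride (NaCl; 1, 2.5 and 10 mM).

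The 30 treated libraries were set against 9 vehicle controls, 4 in DMSO (VCP2 for 2NF, VCP5 for CISP, VCP6 for ETP and VCP7 for both AFB1 and COL), 4 in media (VCP1 for NaCl, VCP3 for 2DG, VCP8 for ASC and VCP9 for AMP) and 1 in water (VCP4 for MMS). Each library is a pool of RNA from 3 cultures. A single condition therefore stands on 1 library and its matched control on another, with no replicates behind either and no p computed. The replicates in the tests are chemicals of a class or controls of a vehicle, so the p-values measure the spread between these libraries only. All but 1 of the DDI chemicals were dissolved in DMSO and all but 1 of the non-DDI chemicals in media, so class and vehicle cannot be told apart. Depth was 8504699 to 16425527 counts per library (median 11202013). All 15 hepatocyte markers had a value of at least 1 RPM, the count scaled to library size, in some library, whereas of the 9 cholangiocyte and progenitor markers 5 had a mean of at least 1 RPM, among them KRT19 at 397 to 1314 RPM in the controls, and KRT7, EPCAM and CFTR stayed at or below 0.338 RPM throughout, and 2 of 8 fibroblast and stellate markers (COL1A2 and THY1) at or below 0.176 RPM.

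Glucuronidation joins glucuronic acid from UDP-glucuronic acid to a hydroxyl, amine or acid group, and sulfation joins a sulfonate group from PAPS. Both make drugs, steroids and bile acids more soluble in water and prepare them for export in bile or urine. UGT2B4 and UGT2B7 conjugate bile acids and steroids, UGT2B7 also glucuronidates morphine, UGT2B10 acts on nicotine and tertiary amines, and UGT2B15 acts on androgens. SULT1A1 is the main phenol sulfotransferase of the liver, SULT2A1 sulfonates dehydroepiandrosterone and bile acids, SULT1E1 is the estrogen sulfotransferase, and SULT1B1 sulfonates thyroid hormones and small phenols. SULT1A1 and SULT2A1 can also activate procarcinogens, and UGT2B7 can detoxify some of them. The UGT2B genes, and SULT1A1 with its paralogs, belong to families of closely related genes. Whether the amplicons share reads with related genes was not tested, and values of single members are uncertain to that extent.

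RefSeq promoter sequences (GRCh38.p14) were found for 6 of the 8 genes, and 5 of these 6 lie on chromosome 4, where the UGT2B cluster is followed by SULT1B1 and SULT1E1. The 250 bases upstream of the start are printed for the 3 UGT2B genes with an entry, to show how alike promoters of the cluster are, and for SULT2A1, the gene with the lowest ratios below. Capitals mark matches to the motifs searched on both strands, which were HNF1 (GTTAAT), HNF4 (CAAAGTCCA), a nuclear receptor motif (AGGTCA) and C/EBP (TTGCNNAA).
UGT2B7 (chr4:69096224-69096473, plus strand): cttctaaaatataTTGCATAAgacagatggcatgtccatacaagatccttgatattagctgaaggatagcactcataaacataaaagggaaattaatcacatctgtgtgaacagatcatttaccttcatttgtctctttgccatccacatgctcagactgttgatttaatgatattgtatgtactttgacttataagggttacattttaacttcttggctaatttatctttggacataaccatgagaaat
UGT2B10 (chr4:68815744-68815993, plus strand): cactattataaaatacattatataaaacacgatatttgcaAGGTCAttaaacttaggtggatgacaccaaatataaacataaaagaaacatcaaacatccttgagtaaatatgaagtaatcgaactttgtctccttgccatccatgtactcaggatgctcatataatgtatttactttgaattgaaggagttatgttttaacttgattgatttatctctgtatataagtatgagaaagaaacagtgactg
UGT2B15 (chr4:68670653-68670902, minus strand): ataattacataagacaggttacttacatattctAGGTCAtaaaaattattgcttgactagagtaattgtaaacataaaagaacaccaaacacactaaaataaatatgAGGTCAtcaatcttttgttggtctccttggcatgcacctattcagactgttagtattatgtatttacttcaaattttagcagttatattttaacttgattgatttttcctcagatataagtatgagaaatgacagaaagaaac
SULT2A1 (chr19:47886316-47886565, minus strand): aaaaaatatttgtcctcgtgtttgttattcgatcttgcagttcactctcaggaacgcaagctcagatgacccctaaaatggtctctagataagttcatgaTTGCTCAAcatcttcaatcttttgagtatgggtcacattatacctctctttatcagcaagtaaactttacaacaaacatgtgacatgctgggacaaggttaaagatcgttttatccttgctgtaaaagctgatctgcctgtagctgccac

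In a global alignment, UGT2B10 and UGT2B15 were identical in 71.6% of aligned columns, UGT2B7 and UGT2B10 in 65.5%, and UGT2B7 and UGT2B15 in 62.6%. The other 12 pairs among the 6 promoters lay between 51.3% and 55.7%. AGGTCA occurred at 1 place upstream of UGT2B10 and at 2 places upstream of UGT2B15, against 12.1% of all 35116 promoters with a match. TTGCNNAA occurred upstream of UGT2B7 and SULT2A1 (9.05% of promoters), GTTAAT upstream of SULT1E1 (6.23%), and CAAAGTCCA in none of the 6 (0.325%). These letters are a description of the windows and not evidence of binding.

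The vehicle controls were compared to learn how far the 8 genes move with no test chemical. In the 4 DMSO controls, SULT2A1 was 353 RPM in VCP2, 220 RPM in VCP5, 220 RPM in VCP6 and 228 RPM in VCP7. In the 4 media controls it was 159 RPM in VCP1, 61.3 RPM in VCP3, 95.9 RPM in VCP8 and 108 RPM in VCP9. Every DMSO control was above every media control, and SULT2A1 was higher in DMSO by 1.29 ± 0.26 on the log2 scale (SE; edgeR quasi-likelihood test, adjusted p = 0.0189; exact permutation p = 0.0286, two-sided, n = 4 and 4, the smallest this design can give). The call rests on VCP2, since without it the edgeR adjusted p was 0.0517. SULT2A1 was the only 1 of the 8 genes called, while 5.35% of 13053 targets were called in this comparison.

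SULT1B1 went the other way. Its levels were 6.28, 2.56, 2.95 and 9.24 RPM in DMSO (VCP2, VCP5, VCP6 and VCP7) and 12.5, 10.8, 14.6 and 16.8 RPM in media (VCP1, VCP3, VCP8 and VCP9), again with no overlap. The fitted difference was −1.35 ± 0.36 (SE; edgeR adjusted p = 0.0569; exact permutation p = 0.0286, n = 4 and 4). SULT1E1 was 0.524, 0.165, 0.227 and 1.29 RPM in DMSO, from 2 to 18 counts, and 6.10, 2.32, 1.95 and 1.26 RPM in media, from 15 to 60 counts. Its groups overlapped only through VCP7, the DMSO control of AFB1 and COL, and the difference was −2.28 ± 0.64 (edgeR adjusted p = 0.0669; exact permutation p = 0.0571, n = 4 and 4). Without VCP7 both genes passed, SULT1B1 at an edgeR adjusted p of 0.0105 and SULT1E1 at 0.0249, and 907 of 13119 targets were called. With any other single control left out, neither gene passed.

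The 4 UGT2B genes and SULT1A1 were not called between vehicles. UGT2B4 was 192, 165, 116 and 194 RPM in DMSO and 164, 97.2, 108 and 114 RPM in media, a difference of 0.49 ± 0.20 (edgeR adjusted p = 0.180). The fitted differences were 0.44 ± 0.34 for UGT2B10, 0.33 ± 0.23 for UGT2B15, −0.31 ± 0.28 for UGT2B7 and −0.13 ± 0.25 for SULT1A1, with edgeR adjusted p-values from 0.460 to 0.811. UGT2B7 and UGT2B10 each had 1 media control, VCP1, well above the other 3 (35.8 RPM against 18.1 to 19.9 RPM, and 6.81 RPM against 2.74 to 3.19 RPM).

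Cell type markers moved with the vehicle. The summed level of the 15 hepatocyte markers was 36564 to 50918 RPM in DMSO and 26395 to 35106 RPM in media, with 3 of 15 higher in DMSO by the same test. That of the 8 fibroblast and stellate markers was 196 to 246 RPM against 329 to 487 RPM, with 4 of the 6 tested lower, and that of the 9 cholangiocyte and progenitor markers 469 to 1345 RPM against 1071 to 1466 RPM, with 1 of the 5 tested higher and 2 lower. Most of the hepatocyte sum was ALB (14020 to 33206 RPM in the 9 controls), and most of the cholangiocyte and progenitor sum was KRT19 (397 to 1314 RPM). The part of the cell type markers in the vehicle difference of SULT2A1 was not tested. In such cultures fewer cells of a type cannot be told apart from less RNA per cell. Of the other UGT genes, 4 of 11 tested were higher in DMSO and none lower, and of the other SULT genes 0 of 3 were called.

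**Figure D1:**
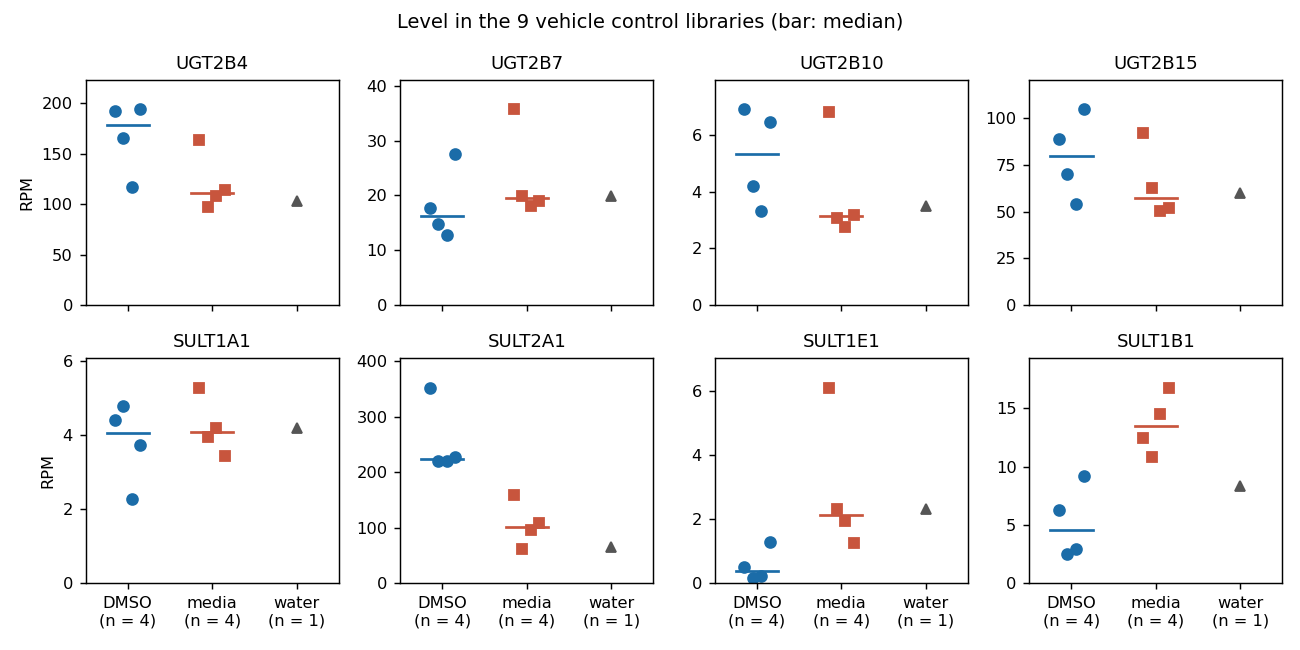
RPM (vertical axis, linear from 0, a scale of its own in each panel) of the 8 genes in the 9 vehicle control libraries by vehicle. Each point is 1 library of pooled RNA and bars are medians. SULT2A1 lies between 220 and 353 RPM in DMSO and between 61.3 and 159 RPM in media, and SULT1B1 is lower in every DMSO control than in every media control.

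The next comparison asked which chemicals and concentrations were accompanied by other levels of the 8 genes. Ratios are log2 differences of RPM + 1 between a treated library and its matched control, and 2-fold is −1 or 1. Of 240 ratios, 36 were more than 2-fold lower and 1 was more than 2-fold higher. The lower values lay in 7 of 30 conditions and 4 of 10 chemicals: the high concentration of AFB1, and the mid and high concentrations of 2NF, MMS and COL. Of the 24 such ratios in DMSO, 23 were also below all 4 DMSO controls (SULT1B1 at the mid concentration of COL was not). Of the 12 for MMS, whose vehicle has a single control, 8 were below all 9 controls.

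The number of genes past 2-fold can be read against all 12790 targets with a mean of at least 1 RPM. At the high concentration of AFB1, 5 of the 8 genes were lower, as were 3.07% of targets. With 2NF, 5 were lower at the mid concentration (4.14% of targets) and 5 at the high concentration (3.33%). With MMS, 7 were lower at the mid concentration (7.51%) and 5 at the high concentration (5.71%). With COL, a non-DDI chemical that blocks tubulin assembly, 2 were lower at the mid concentration (1.38%) and 7 at the high concentration (4.64%). The single higher value was UGT2B10 at the low concentration of ETP (8.06 against 3.33 RPM, 1.07 on the log2 scale), where 1.13% of targets were more than 2-fold higher.

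On the scale of RPM + 1, CISP, ETP, 2DG, ASC, AMP and NaCl had no gene more than 2-fold lower than the matched control at any concentration. Of all targets, 6.69% and 4.33% were more than 2-fold lower at the low and mid concentrations of CISP, and 3.43% with 2DG at the low concentration. In the other conditions of these chemicals the share lay between 0.0469% (AMP, low) and 1.13% (ASC, high). The lowest of the 184 ratios in the 23 conditions without a value more than 2-fold lower was −0.88, for UGT2B10 with 2DG at the high concentration. With 0.1 added instead of 1, or against the mean of the media controls, 2DG at the high concentration also held a value more than 2-fold lower. Against the mean of all 9 controls, conditions of CISP, ETP and 2DG did. All 8 genes were above their control with ASC at each of 3 concentrations, by at most 0.98. The 3 conditions share a single control, VCP8, which was the lowest of the 4 media controls for UGT2B7, UGT2B10 and UGT2B15. The media controls themselves differed by up to 1.36 on the same scale for SULT2A1 and by up to 1.65 for SULT1E1, between the lowest and the highest of the 4.

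**Figure D2:**
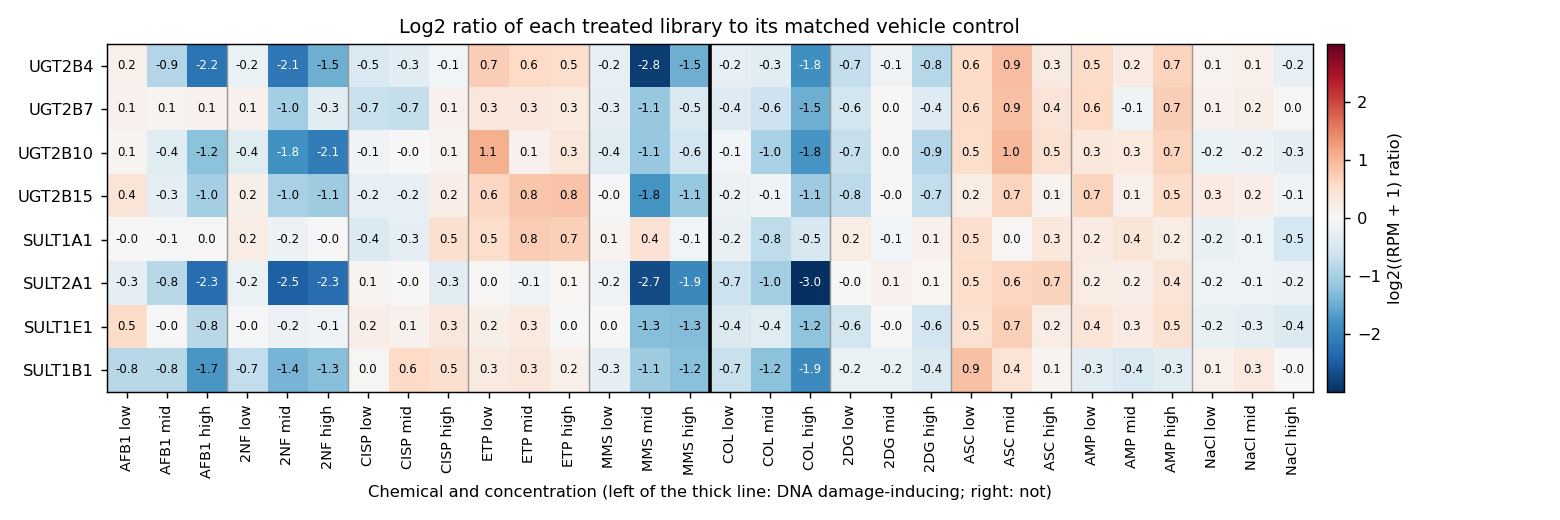
Log2 ratio of RPM + 1 between each of the 30 treated libraries and its matched vehicle control, for the 8 genes (rows) and the chemicals with their low, mid and high concentrations (columns); blue is lower and red is higher than the control, and each cell gives its value. The deepest blue lies at the high concentration of AFB1 and COL and at the mid and high concentrations of 2NF and MMS, and the row of SULT1A1 stays pale.

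UGT2B4, a bile acid and steroid UGT, ranged from 13.5 to 216 RPM over the 39 libraries, with a median of 136 RPM. It was 42.0 RPM with AFB1 at the high concentration against 194 RPM in VCP7 (−2.18). With 2NF it was 42.5 RPM at the mid and 69.2 RPM at the high concentration against 192 RPM in VCP2 (−2.15 and −1.46). With MMS it was 13.5 RPM at the mid and 37.0 RPM at the high concentration against 103 RPM in VCP4 (−2.84 and −1.45). COL at the high concentration gave 53.5 RPM against 194 RPM (−1.84), while the mid concentration gave 154 RPM (−0.33). UGT2B4 was thus past 2-fold in 6 conditions, and in the remaining conditions its ratio ran from −0.87 to 0.92. Against the mean of the 4 DMSO controls it was −1.94 for AFB1, −1.23 for 2NF and −1.60 for COL at the high concentration. For 2NF at the mid concentration it was −1.92. Against the mean of all 9 controls, 2NF at the high concentration was −0.95, inside 2-fold.

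UGT2B7, which glucuronidates morphine and many steroids, did not follow UGT2B4 with AFB1. Its level was 30.4, 29.3 and 30.1 RPM at the low, mid and high concentrations of AFB1 against 27.6 RPM in VCP7, and the ratio at the high concentration was 0.12. It was past 2-fold in 3 conditions: 8.30 RPM against 17.7 RPM with 2NF at the mid concentration (−1.01), 8.53 RPM against 20.0 RPM with MMS at the mid concentration (−1.14) and 9.33 RPM against 27.6 RPM with COL at the high concentration (−1.47). At the high concentrations of 2NF and MMS the ratios were −0.31 and −0.45. Against the mean of the 4 DMSO controls, the ratios with 2NF at the mid and COL at the high concentration were −0.99 and −0.84, both inside 2-fold.

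Counts of both genes come from the same library, so their ratio, a measure chosen after the values were seen, does not depend on library scaling. UGT2B4 counts per UGT2B7 count ran from 4.58 to 11.1 in the 9 controls, with a median of 6.00. With increasing AFB1 the value was 7.11, 3.61 and 1.39 (449 and 322 counts in the last), against 7.04 in VCP7. It was 1.59 and 2.58 at the mid and high concentrations of MMS, against 5.16 in VCP4. These 3 values were the lowest of the 39 libraries. With COL at the high concentration, where both genes were lower, the value was 5.73.

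UGT2B10, which acts on tertiary amines, was a low-count gene, with 9 to 90 counts per library. It was 0.863 RPM with 2NF at the high concentration against 6.91 RPM in VCP2, a ratio of RPM of 0.125 with a 95% counting interval of 0.0547 to 0.252. It was also past 2-fold with 2NF at the mid concentration (−1.81), COL at the high concentration (−1.76), AFB1 at the high concentration (−1.24) and MMS at the mid concentration (−1.13). With MMS at the high concentration it was −0.57. Against the mean of the 4 DMSO controls the value for AFB1 was −0.94, inside 2-fold, as was the higher value with ETP at the low concentration (0.59). Intervals of this kind cover counting error only, since the amplified reads carry no molecular identifiers.

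UGT2B15, an androgen UGT, had smaller differences, with 16.5 RPM against 59.9 RPM with MMS at the mid concentration (−1.80). Its other 4 ratios past 2-fold lay close together, at −1.03 for AFB1, −1.06 for 2NF, −1.14 for MMS and −1.08 for COL, each at the high concentration. With 2NF at the mid concentration it stood just inside 2-fold (−0.96). Against the mean of the 4 DMSO controls the values for AFB1, 2NF and COL at the high concentration were −0.59, −0.86 and −0.64, all inside 2-fold. With ETP it was above its control at all 3 concentrations, by 0.61, 0.83 and 0.85. These ratios share VCP6, at 54.0 RPM the lowest of the 4 DMSO controls, which spanned 0.94 for this gene.

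SULT2A1 is the hydroxysteroid sulfotransferase. On the RPM + 1 scale it had the lowest ratio of the 8 genes with AFB1, 2NF, MMS and COL at the high concentration. The same held for 2NF at the mid concentration. With 0.1 added instead of 1, UGT2B10 was lower than SULT2A1 with 2NF at the high concentration (−2.86 against −2.29). SULT1E1 was then lower with MMS (−2.45 against −1.99) and COL (−3.80 against −3.04) at the high concentration. SULT2A1 was 46.4 RPM with AFB1 at the high concentration (−2.27) and 128 RPM at the mid concentration (−0.83) against 228 RPM in VCP7. With 2NF it was 309, 63.7 and 72.0 RPM from the low to the high concentration against 353 RPM in VCP2 (−0.19, −2.45 and −2.28). With MMS it was 58.4, 9.32 and 16.4 RPM against 65.4 RPM in VCP4 (−0.16, −2.69 and −1.94). With COL it was 144, 111 and 27.7 RPM against 228 RPM (−0.66, −1.02 and −3.00), and the last is 8.24-fold lower in RPM. For AFB1 and COL the values followed the order of the concentrations, whereas the mid concentrations of 2NF and MMS were lower than the high ones. VCP2 was the highest of the 4 DMSO controls, and against their mean 2NF was −1.95 (mid) and −1.78 (high). Against the mean of all 9 controls 2NF was −1.16 and −0.99, and COL at the mid concentration was −0.36, the last 2 inside 2-fold. MMS was then further below, at −3.81 (mid) and −3.06 (high).

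SULT1B1, a sulfotransferase of thyroid hormones and phenols, was past 2-fold in all 7 conditions, by −1.07 to −1.90. Its lowest level was 1.74 RPM with COL at the high concentration (16 counts) against 9.24 RPM in VCP7, a ratio of 0.188 with a 95% counting interval of 0.104 to 0.317. The 4 DMSO controls themselves spanned 1.52 for this gene, and VCP7, the control of AFB1 and COL, was the highest of them. Against the mean of the 4 DMSO controls the ratio was −0.90 for AFB1 at the high concentration and −0.38 and −1.06 for COL at the mid and high concentrations. For 2NF at the mid and high concentrations it was −1.03 and −0.92, so AFB1, COL at the mid and 2NF at the high concentration came inside 2-fold.

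SULT1E1, the estrogen sulfotransferase, had 0 to 69 counts per library and is limited by depth. No count was seen with COL at the high concentration against 18 counts in VCP7, which is at least 3.96-fold lower with 0 counts set to 3. VCP7 held the most counts of the 4 DMSO controls, and against their mean the log2 ratio was −0.58, inside 2-fold. With MMS there were 4 counts (mid) and 3 counts (high) against 29 in VCP4, with ratios of RPM of 0.153 (95% counting interval 0.0391 to 0.436) and 0.147 (0.0287 to 0.475). In the DMSO controls of 2NF, CISP and ETP it had 5, 2 and 3 counts, so a lower level could not be detected at this depth for those chemicals. In media, where it was more abundant, its ratios with 2DG, ASC, AMP and NaCl lay between −0.58 and 0.72.

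SULT1A1, the phenol sulfotransferase, was past 2-fold on this scale in no condition, with ratios from −0.76 to 0.77 and 1.79 to 7.04 RPM over the 39 libraries. At the high concentration of AFB1 it was 3.83 RPM against 3.72 RPM, where SULT2A1 was 4.91-fold lower. At the mid concentration of MMS it was 5.98 RPM against 4.20 RPM, where SULT2A1 was 7.02-fold lower. Its lowest ratio was with COL at the mid concentration, 1.79 RPM (18 counts) against 3.72 RPM, or 0.480 in RPM without the added 1, with a 95% counting interval of 0.264 to 0.834. With 18 to 76 counts per library, small differences in this gene were not detectable.

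**Figure D3:**
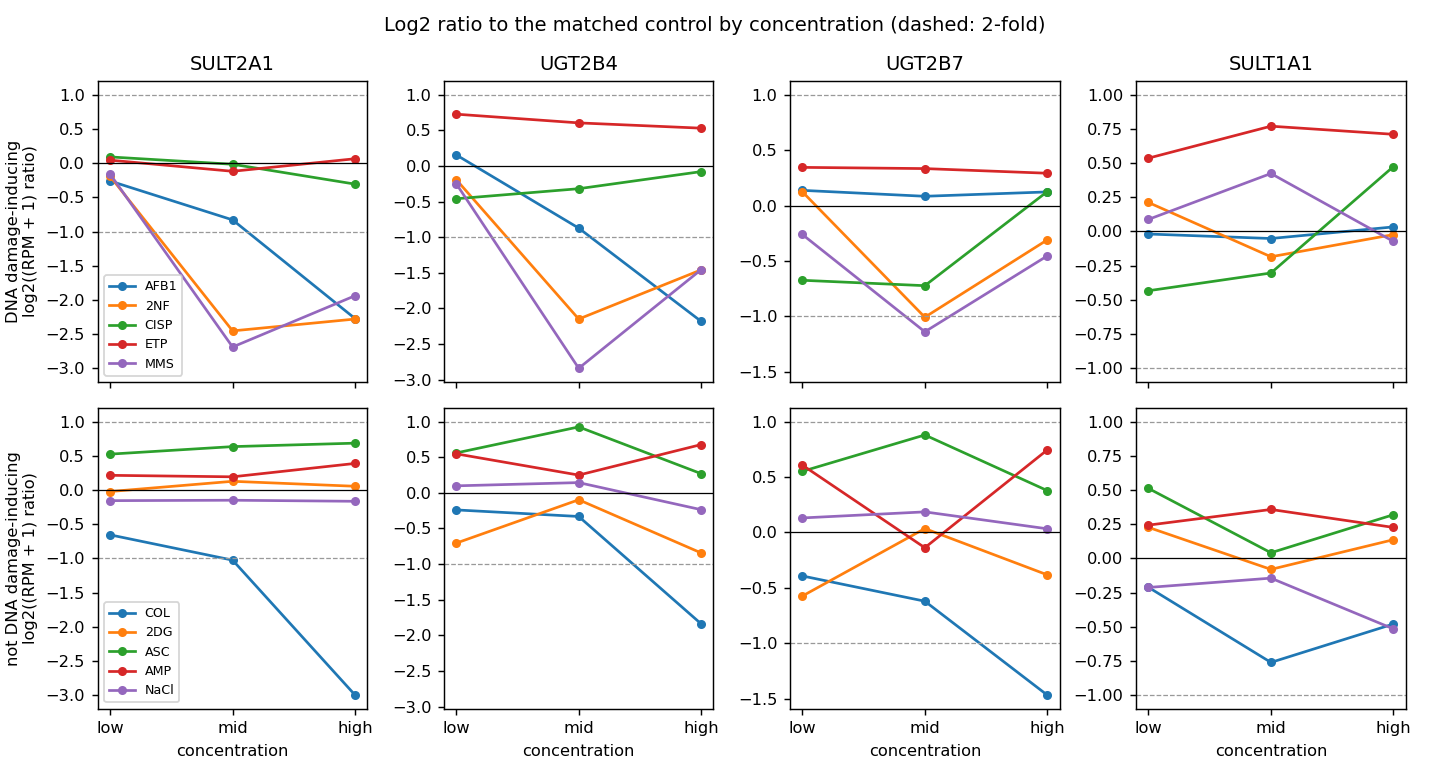
Log2 ratio of RPM + 1 to the matched control (vertical axis) at the low, mid and high concentration (horizontal axis, in order and not to scale) of SULT2A1, UGT2B4, UGT2B7 and SULT1A1, for the DDI chemicals (top) and non-DDI chemicals (bottom); each point is 1 library and dashed lines mark 2-fold. SULT2A1 reaches −2.27 with AFB1 and −3.00 with COL at the high concentration, while SULT1A1 stays between −0.76 and 0.77.

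The class comparison asked whether the 8 genes differ from the controls across the 5 DDI chemicals, in a fit that blocks libraries by their matched control. None was called, while 1.96% of 13602 targets were called for the DDI chemicals at the high concentration (267 targets, by edgeR). Of the 8 genes, 2 had an unadjusted edgeR p below 0.05, as had 2312 of the 13602 targets. The ratios of SULT2A1 at the high concentration were −2.27 (AFB1), −2.28 (2NF), −0.31 (CISP), 0.06 (ETP) and −1.94 (MMS), and the fitted difference was −1.27 ± 0.47 (SE; edgeR adjusted p = 0.184, n = 5 chemicals). Those of UGT2B4 were −2.18, −1.46, −0.08, 0.53 and −1.45, with a fitted difference of −0.92 ± 0.38 (adjusted p = 0.230). AFB1, 2NF and MMS were far below their controls and CISP and ETP were near or above them, and the ratios had a mean of −1.35 ± 1.13 (SD, n = 5) for SULT2A1 and −0.93 ± 1.12 for UGT2B4. DESeq2 also called 0 of the 8 genes.

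For the other genes the fitted differences at the high concentration were −1.03 ± 0.69 for SULT1E1, −0.87 ± 0.41 for SULT1B1, −0.78 ± 0.48 for UGT2B10, −0.44 ± 0.29 for UGT2B15, 0.27 ± 0.22 for SULT1A1 and 0.06 ± 0.26 for UGT2B7 (SE; edgeR adjusted p from 0.298 to 0.942). The value of UGT2B7 turned to −0.23 when all 9 controls were taken as 1 group. Leaving out COL, a non-DDI chemical whose control it shares with AFB1, brought SULT2A1 to −1.41 ± 0.34 with an edgeR adjusted p of 0.0273. In that fit 994 of 13610 targets were called. Without 2NF, AFB1 or MMS, 0 of the 8 genes were called, beside 73 of 13601, 10 of 13619 and 127 of 13551 targets. None of the 8 then had an unadjusted edgeR p below 0.05. At the mid concentration 0 of the 8 genes were called among 0.132% of 13626 targets (18 targets). Of the 8, 2 had an unadjusted edgeR p below 0.05, as had 1409 of the 13626 targets. SULT2A1 was −1.08 ± 0.38 (edgeR adjusted p = 0.316) and UGT2B4 −1.05 ± 0.39 (edgeR adjusted p = 0.337).

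The comparison of high with low concentrations used no controls and paired each chemical with itself. In the DDI chemicals, 0 of the 8 genes were called among 1.71% of 13565 targets (232 targets). An unadjusted edgeR p below 0.05 was seen for 5 of the 8 and for 2277 of the 13565 targets. SULT2A1 differed by −1.31 ± 0.37 (SE; edgeR adjusted p = 0.0853), UGT2B4 by −0.97 ± 0.32 (0.127), SULT1E1 by −1.57 ± 0.56 (0.161), UGT2B15 by −0.67 ± 0.25 (0.173) and UGT2B10 by −0.99 ± 0.38 (0.197). SULT1B1 differed by −0.57 ± 0.29, SULT1A1 by 0.14 ± 0.20 and UGT2B7 by −0.03 ± 0.19, with adjusted p-values from 0.334 to 0.953. The outcome depended on single chemicals: without CISP, SULT2A1, UGT2B4 and UGT2B15 passed at edgeR adjusted p-values of 0.0426, 0.0260 and 0.0347. Without ETP, SULT2A1 and UGT2B15 passed at 0.0254 and 0.0492, and without COL, SULT2A1 passed at 0.0277. In these 3 fits more targets were called as well, 567 of 13531, 607 of 13551 and 439 of 13535. Without 2NF, AFB1 or MMS, 0 of the 8 genes were called, beside 19 of 13525, 18 of 13548 and 60 of 13509 targets.

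In the non-DDI chemicals no target was called at the high concentration (0% of 13602), at the mid concentration (0% of 13626) or between the high and low concentrations (0% of 13565). The targets with an unadjusted edgeR p below 0.05 numbered 563, 501 and 629, and DESeq2 also called 0 in each. SULT2A1 was −0.28 ± 0.48 at the high concentration (edgeR adjusted p = 0.953), with ratios of −3.00 for COL, 0.05 for 2DG, 0.68 for ASC, 0.39 for AMP and −0.17 for NaCl, and without COL the fitted difference was 0.25. UGT2B4 was −0.33 ± 0.37 (adjusted p = 0.925), with −1.84 for COL and −0.84, 0.27, 0.68 and −0.24 for the others. The DDI effect minus the non-DDI effect at the high concentration was −0.98 ± 0.65 for SULT2A1 and −0.59 ± 0.51 for UGT2B4 (adjusted p = 0.784 and 0.862), with 0 of the 8 genes called among 0.0515% of targets. At the mid concentration it was −0.97 ± 0.50 and −1.19 ± 0.50 (adjusted p = 0.807 for both, 0% of targets called by edgeR with 783 at an unadjusted p below 0.05, and 12 called by DESeq2). The exact permutation test over the 10 chemicals gave a p of 0.0952 for UGT2B4 and 0.119 for SULT2A1 at the mid concentration, where the smallest p it can give is 0.00794. It treats the 10 ratios as independent, although those of AFB1 and COL share the control VCP7.

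**Figure D4:**
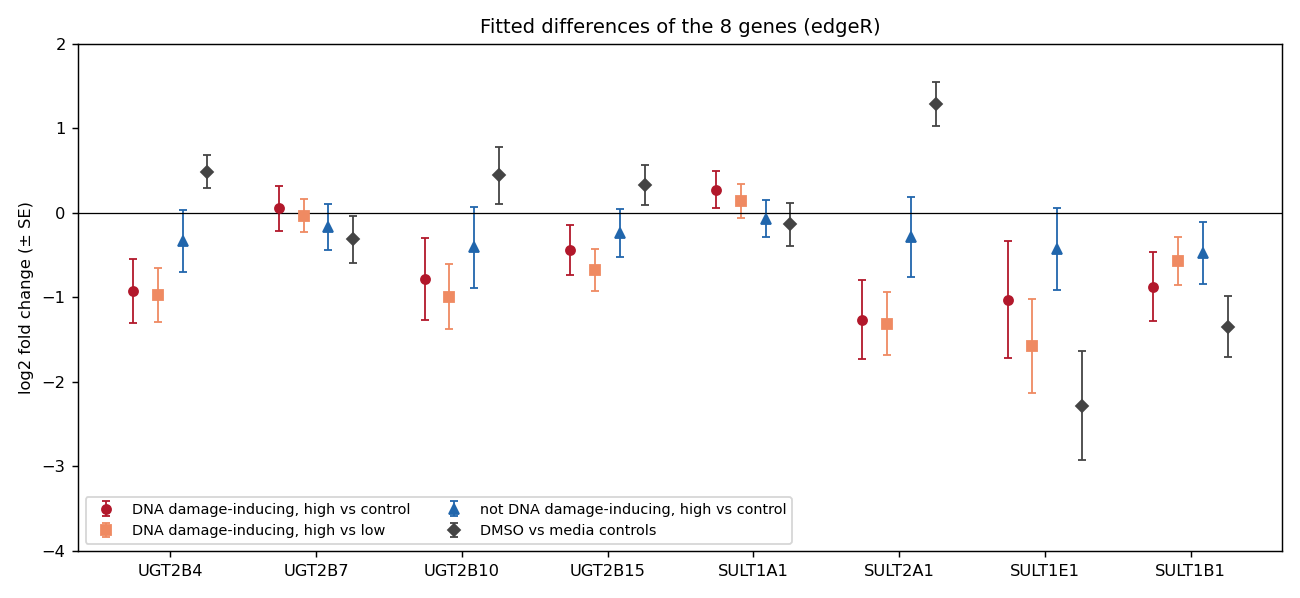
Fitted log2 fold changes (vertical axis) with SE bars of the 8 genes from edgeR for 4 comparisons: DDI chemicals at the high concentration against controls, DDI chemicals high against low, non-DDI chemicals at the high concentration against controls, and DMSO against media controls. SULT2A1 is at −1.27 for the DDI chemicals at the high concentration and at 1.29 for DMSO against media, and UGT2B7 is at 0.06 and −0.31.

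Hepatocyte markers had lower values in the same 7 conditions, but not only there. With AFB1 at the mid concentration their median ratio was −0.80, 5 of 15 were more than 2-fold lower and none of the 8 genes was. At the low concentrations of 2NF, COL, MMS and AFB1 the marker median was −0.32, −0.46, −0.47 and −0.42. Of the 15 markers, 3, 2, 1 and 1 were more than 2-fold lower there, and again none of the 8 genes was. In the 7 conditions their median ratio over 15 genes was −1.87 with AFB1 at the high concentration, −1.45 and −1.26 with 2NF at the mid and high concentrations, −2.41 and −1.91 with MMS, and −0.77 and −1.55 with COL. Between 5 and 14 of the 15 were more than 2-fold lower. Their summed level ran from 8314 to 42225 RPM at the high concentration of the DDI chemicals and from 4508 to 37962 RPM at the mid concentration, against 26395 to 50918 RPM in the 9 controls. SULT2A1 was below the marker median in all 7 conditions, by 0.02 to 1.45 on the log2 scale. On the scale of RPM + 1, UGT2B15, UGT2B7, SULT1E1 and SULT1A1 were above it in all 7. The distance was 0.21 to 0.84 for UGT2B15 and up to 1.99, 1.28 and 2.84 for the others. For the low-count genes this order can depend on the added 1. With 0.1 added instead, SULT1E1 was −2.45 with MMS and −3.80 with COL, each at the high concentration. SULT1A1 was above the marker median by only 0.01 with COL at the mid concentration. UGT2B4 was below the marker median in 5 of 7, and UGT2B10 and SULT1B1 were split. The part of the hepatocyte markers in these ratios was not tested.

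The cholangiocyte and progenitor markers had median ratios from −1.56 to −0.03 over 5 measured genes in these 7 conditions and were lowest with MMS. The fibroblast and stellate markers had medians from −0.83 to 0.61 over 6 genes. The 12 proliferation genes had medians from 1.20 to 2.68. Their medians were of like size in conditions with none of the 8 genes lower, at 1.41 with COL at the low, 1.21 with ETP at the mid, 1.10 with 2NF at the low and 1.09 with AFB1 at the mid concentration. Of these genes 4 of 12 were called higher for the DDI chemicals at the high concentration. The 15 p53 targets had medians from 0.65 to 0.95 in the 5 DDI conditions and of 0.00 and 0.13 with COL, and 8 of 15 were called higher. Among conditions with none of the 8 genes more than 2-fold lower, their median was 0.62 with ETP and 0.60 with CISP at the high concentration. At the mid concentration it was 0.48 with ETP and 0.45 with AFB1. The part of these genes in the lower UGT2B and SULT levels was not tested.

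**Figure D5:**
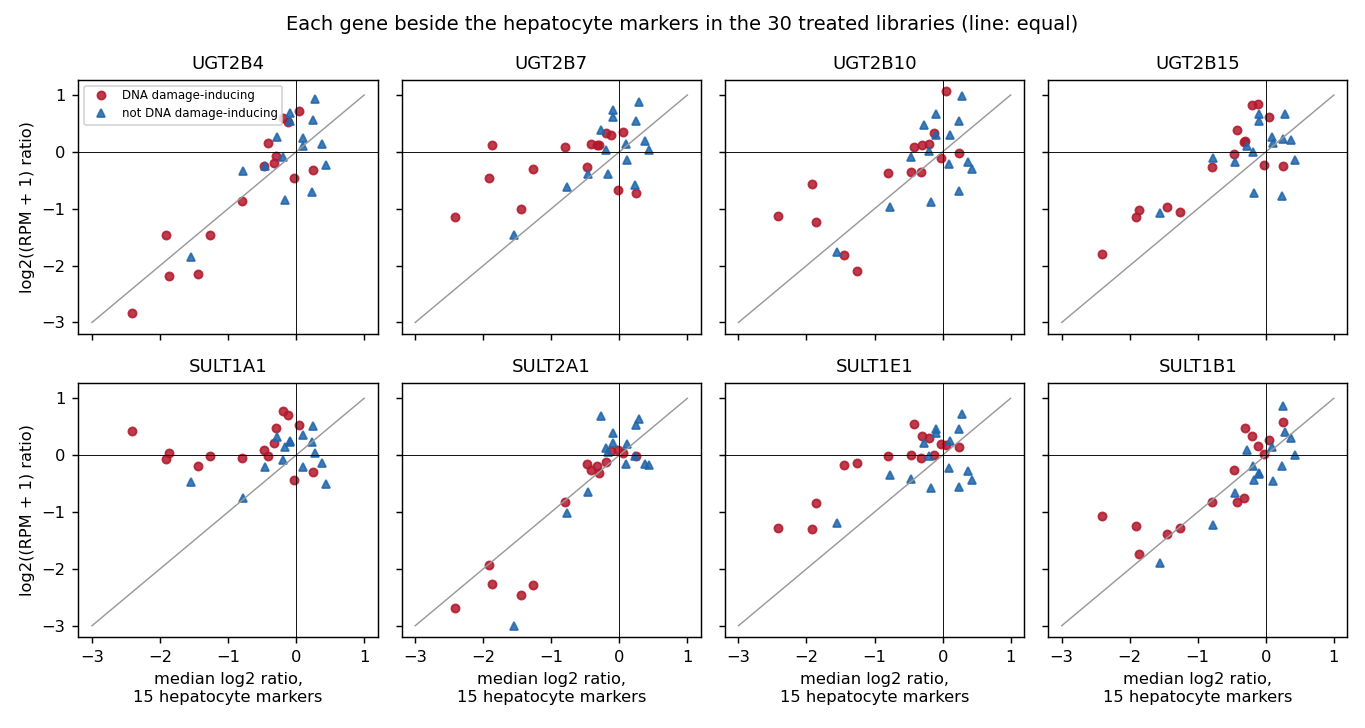
Log2 ratio of RPM + 1 of each of the 8 genes (vertical axis) beside the median log2 ratio of 15 hepatocyte markers (horizontal axis) in the 30 treated libraries; circles are DDI and triangles non-DDI chemicals, and the diagonal marks equal ratios. SULT2A1 lies below the diagonal in the 7 conditions where a gene was more than 2-fold lower, and SULT1A1 lies above it there, with ratios from −0.76 to 0.42.

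The rest of the conjugation pathway was described by lists of its parts. For the DDI chemicals at the high concentration, 0 of 11 other UGT genes were called (median −0.24), and UGT1A9, a phenol UGT whose amplicon may share exons with its UGT1A neighbours, was −1.16 ± 0.39 (edgeR adjusted p = 0.142). Of the other SULT genes 0 of 3 were called (median −0.31), SULT1A2 being −0.43 ± 0.23 (adjusted p = 0.373). Of the genes that supply the donors or reverse the conjugation, 0 of 13 were called (median 0.02), and SLC35D1, which carries UDP-glucuronic acid into the endoplasmic reticulum, was −0.41 ± 0.16 (adjusted p = 0.198). Of 9 transporters that export or take up conjugates, 0 were called (median −0.20), and SLCO2B1 was −1.01 ± 0.33 (adjusted p = 0.136). Of 19 transcription regulators 0 were called (median −0.44), and NR1I3, the constitutive androstane receptor, was −1.84 ± 0.69 (adjusted p = 0.188). Of 19 other phase II enzymes 0 were called (median −0.38), and GLYAT, a glycine N-acyltransferase, was −1.87 ± 0.53 (adjusted p = 0.0867). The median over all 13602 targets tested was −0.000514.

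Between the high and low concentrations of the DDI chemicals, SLCO2B1 (−0.99 ± 0.24, edgeR adjusted p = 0.0477) and GLYAT (−1.71 ± 0.40, edgeR adjusted p = 0.0441) were called lower, each the only call of its list, as were 2 of 15 hepatocyte markers, and none of the other UGT, other SULT, donor or regulator genes was called. In the 7 conditions the donor genes had medians from −0.27 to 0.12. Among the other UGT genes, at most 3 of 11 were more than 2-fold lower in any of the 7. The transporters had 1 to 4 of 9 more than 2-fold lower, the regulators 2 to 8 of 17, and the other phase II enzymes 3 to 9 of 19.

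Over the 39 libraries, the likeness of the levels of the 8 genes is given as a description, since the libraries share chemicals, controls and vehicles. Pearson's r of log2(RPM + 1) was 0.89 between UGT2B4 and both UGT2B15 and SULT2A1, 0.86 between UGT2B4 and UGT2B10, and 0.85 between SULT1E1 and SULT1B1. It was 0.53 between UGT2B4 and UGT2B7, 0.16 between SULT2A1 and SULT1B1, and between −0.12 and 0.33 for SULT1A1 with any other. The genes most like UGT2B4 among all targets were CYP2C8 (0.93), GC (0.92) and F13B (0.92), and those most like SULT2A1 were UGT1A9 (0.96), ONECUT1 (0.95) and AGXT (0.95). Among the nearest to UGT2B10 were UGT2B4 (0.86) and CYP2C8 (0.86), and among the nearest to UGT2B15 were UGT2B4 (0.89) and F13B (0.87). Among the nearest to UGT2B7 were CYP21A2 (0.81) and APOC1 (0.80). SULT1B1 was nearest to CYP4A11 (0.95) and CYP4X1 (0.94), SULT1E1 to AGR2 (0.90) and LGALS4 (0.88), and MYO7B was the third for both (0.91 and 0.87). SULT1A1 had no close neighbour, with ALKBH2 (0.68), CDK16 (0.65) and CYGB (0.63) at the top. With 18 to 76 counts per library and an SD of 0.29 on this scale, counting error limits how high its r can be.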

How the data were processed

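RNA of HepaRG™ cultures was profiled with AmpliSeq, 1 amplicon per gene. The authors aligned reads to the panel's transcripts (hg19) with the Torrent Mapping Alignment Program and deposited raw counts per target. They also deposited RPM values, which are those counts scaled to the library total. The 10 spike-in targets were left out. The 39 libraries were grouped by the labels.

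Counts were tested with edgeR 4.0.16 in R 4.3.3 (TMM scaling, low-count filter, quasi-likelihood test, Benjamini-Hochberg adjustment, threshold 0.05). The class fits held 19 libraries with the 9 matched controls as blocks, leaving 8 residual degrees of freedom. Single conditions were compared on log2(RPM + 1) with a 2-fold rule. Exact permutation tests were two-sided (scipy 1.17.1). The edgeR script was tested on simulated data. Alternatives were other scalings, no count filter, DESeq2 1.42.0, no block, leaving out each chemical or control, another pseudocount and other control means.

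Named genes were the 8 members, for each the 3 targets with the highest Pearson correlation, and a few genes of each list chosen by a written rule. A few genes that this rule or the marker lists hold are not reported here. The members and lists were chosen with earlier results of these data known. UGT2B4 and SULT1A1 had no promoter entry. Python 3.11.15, numpy 2.4.6, pandas 2.3.3 and matplotlib 3.10.9 were used.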

Additional observations from a re-analysis of the deposited data

Results flagged for a closer look

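In 64 groups of 4 or 5 libraries, the highest or lowest value was set against the others by its gap to the nearest relative to the group's range, which chance alone exceeds in about 1 of 20 groups. There were 5 such values. In the media controls, VCP1 stood above the other 3 for UGT2B7 (5.20 on the log2(RPM + 1) scale) and for UGT2B10 (2.96). In the DMSO controls, VCP2 stood above the other 3 for SULT2A1 (8.47). Among the non-DDI chemicals at the high concentration, COL stood below the other 4 for SULT2A1 (log2 ratio −3.00) and for SULT1B1 (−1.90).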

How the results depend on the processing

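Each library is 1 pool of 3 cultures, so no single condition has a replicate check, and SULT1E1, UGT2B10 and SULT1A1 are limited by low counts. Of 518 alternative values of member effects, 486 kept their direction and side of the threshold, 17 passed it, 1 lost it and 14 changed sign. The cause of these changes was not tested. No paired analysis was possible because the DMSO and media controls carry no shared replicate numbers.

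For DDI chemicals at the high concentration, 431 targets were called with no count filter, 771 by DESeq2 and 89 with no block, and 10 (without AFB1) to 994 (without COL) with 1 chemical left out, with 0 to 1 of the 8 genes. For the DDI minus non-DDI effect these were 34, 96 and 34 targets, and 0 to 17. At the mid concentration they were 44, 231 and 0, and 3 to 136, for DDI chemicals, 1 with no block for non-DDI chemicals, and 12 by DESeq2 and 0 to 2 for the difference. Between high and low concentrations of DDI chemicals, 505 targets and 2 of the 8 genes were called with no count filter, 646 targets by DESeq2, and 18 to 607 targets and 0 to 3 genes with 1 chemical left out. Between DMSO and media, DESeq2 called 1144 targets and 3 of the 8 genes, no count filter 3 genes and the library total alone 2, and leaving out 1 control gave 227 (without VCP5) to 907 (without VCP7) targets and 0 to 3 genes.

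The sign changed for UGT2B7 in DDI chemicals at the high concentration (−0.23 with no block, −0.14 to 0.20 with 1 chemical left out) and high against low (0.0223 with the library total alone, −0.22 to 0.0859). It changed for SULT2A1 in the difference at the mid concentration with no block (0.0523). With 1 chemical left out, SULT2A1 in non-DDI chemicals ran from −0.56 to 0.25 (high), −0.29 to 0.23 (mid) and −0.46 to 0.13 (high against low), UGT2B4 at the mid concentration from −0.0625 to 0.33, and SULT1A1 in DDI chemicals high against low from −0.10 to 0.26. With 1 control left out, SULT1A1 ran from −0.26 to 0.0558 between DMSO and media.

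Of the single ratios, 36 were more than 2-fold lower, 40 with a pseudocount of 0.1 (3 higher), 36 with TMM scaling, 28 against the mean of the same-vehicle controls (26 of them among the 36) and 40 against the mean of all 9 controls (27 among the 36), where 8 were higher and 15 conditions held a lower value.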
